A study of Rattus norvegicus with 30 samples.

Results

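Urinary exosome miRNAs of rats with renal ischemia/reperfusion injury (IRI) were set against those of sham-operated rats at day 7 after the surgery. The comparison takes every column of that day: 3 IRI libraries (rats 1, 2 and 13) and 3 sham libraries (rats 3, 6 and 9), 6 of the 30 libraries of the series, with all 68 miRNAs listed at day 7 of the 122 listed on any of the 5 days. The animals were male Sprague Dawley rats, 10 weeks old when obtained. IRI was produced by cutting off the blood supply of both kidneys with clamps for 25 minutes, and sham rats had surgery but no clamps. Each library came from the urine of 1 rat, from which exosomal small RNA was prepared with a urine exosome kit, so the spread within a group is that between rats (n = 3). Day 7 belongs to the period in which the study had plasma creatinine of IRI rats back at the level of sham rats, and the comparison asks which urinary miRNAs still differ at that time.

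Exosomes are small vesicles that cells shed into body fluids, and those in urine come from cells of the nephron and the urinary tract. A miRNA is a short RNA that pairs with mRNAs through its seed, the bases near its 5′ end, and lowers their translation or stability. miRNAs with one seed form a family with overlapping targets. In the kidney, miR-21 is known for its rise after injury and for its part in fibrosis, the miR-200 family holds epithelial cells in their differentiated state, and miR-192 and miR-30 members are abundant in tubules.

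The mature sequences below are those of the miRNAs that carried most of the reads or separated the groups, with bases 2 to 8, the seed, in capitals. They are from RefSeq (GRCr8), in which 58 of the 68 listed miRNAs were matched by name. First come let-7 members, which share 1 seed.
let-7c-5p: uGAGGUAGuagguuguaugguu
let-7f-5p: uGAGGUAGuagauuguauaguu
let-7b-5p: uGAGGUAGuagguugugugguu
let-7a-5p: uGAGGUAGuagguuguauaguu
let-7i-5p: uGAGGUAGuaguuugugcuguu

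These let-7 members differ from each other by 1 to 4 of their bases, so a read with a sequencing error can be counted for a neighbour, and differences between single members are uncertain. The next set holds the abundant miRNAs outside let-7 whose IRI and sham rats did not overlap.
miR-21-5p: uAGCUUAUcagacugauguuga
miR-378a-3p: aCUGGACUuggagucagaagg
miR-16-5p: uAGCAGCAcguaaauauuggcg

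In the same annotation miR-21-5p lies on chromosome 10, miR-378a-3p on chromosome 18 and miR-16-5p on chromosome 2, and let-7b-5p and let-7i-5p lie on chromosome 7. The other let-7 members shown have a copy on each of 2 chromosomes, which the counts cannot tell apart.

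The last set holds the rare miRNAs with the largest differences, each beside its relative by seed where 1 was listed.
miR-351-5p: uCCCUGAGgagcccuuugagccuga
miR-125a-5p: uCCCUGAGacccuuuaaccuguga
miR-125b-5p: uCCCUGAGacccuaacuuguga
miR-23b-3p: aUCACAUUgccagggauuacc
miR-23a-3p: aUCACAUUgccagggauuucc
miR-423-5p: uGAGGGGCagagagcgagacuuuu
miR-34a-5p: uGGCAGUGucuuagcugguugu

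miR-351-5p, on chromosome X, has the seed of miR-125a-5p (chromosome 1) and miR-125b-5p (chromosome 11) and another 3′ part. miR-23b-3p (chromosome 17) and miR-23a-3p (chromosome 19) differ by a single base, U19A when counted from the 5′ end of miR-23a-3p, so their counts are uncertain in the same way as those of let-7. miR-423-5p lies on chromosome 10 and miR-34a-5p on chromosome 5.

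The libraries were shallow. The deposited values are scaled counts, and all of them were whole multiples, within 0.1, of the worth of 1 read in their library, so the reads could be recovered. IRI rats 1, 2 and 13 had 466, 431 and 837 reads in listed miRNAs and sham rats 3, 6 and 9 had 211, 981 and 651. The means were 578 ± 225 in IRI rats and 614 ± 386 in sham rats (mean ± SD of 3 rats each, exact permutation test, two-sided p = 1, smallest possible 0.1). Listed miRNAs above 0 numbered 58, 54 and 57 in IRI rats and 41, 61 and 55 in sham rats (exact permutation p = 0.8). Sham rat 3 was the shallowest library, and its low number of miRNAs above 0 went with its depth. 1 read was worth 2031, 1986 and 1199 on the scaled axis in IRI rats and 3992, 1256 and 1455 in sham rats. Of the 68 miRNAs, 34 had at most 5 reads in every library and 27 were above 0 in all 6. By the labels, IRI rats 1 and 2 were sequenced in lane 2 and IRI rat 13 in lane 5, whereas sham rat 3 was in lane 3 and sham rats 6 and 9 in lane 4, so lane and surgery cannot be told apart at day 7.

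Few markers of cells other than the nephron were listed. Listing took 3 or more libraries above 0, so at these depths an unlisted miRNA could still be present at a low share. Of 6 kidney tubule miRNAs 5 were listed, and they took 7.51% to 10.4% of the reads in IRI rats and 4.61% to 10.4% in sham rats. They were miR-192-5p, miR-30a-5p, miR-10a-5p, miR-200a-3p and miR-200b-3p. Such miRNAs are shared between cell types, so their listing does not give the source of the exosomes. None of the 5 leukocyte, 2 endothelial, 1 liver and 4 muscle miRNAs was listed, and of 5 red cell miRNAs only miR-16-5p, which most cells hold, was. Both miRNAs of squamous and urinary tract epithelium, miR-205 and miR-203a-3p, were listed at 1 to 5 reads summed in IRI rats and 1 to 8 in sham rats. Of 5 mesenchymal miRNAs only miR-199a-3p was listed, at 0 to 2 reads in IRI rats and 0 to 1 in sham rats.

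Most of the exosomal miRNA at day 7 was let-7 in both groups. let-7 is a large family known for restraining growth genes in differentiated cells. let-7c-5p, let-7f-5p, let-7b-5p and let-7a-5p together took 51.3%, 46.4% and 48.7% of the reads in IRI rats and 48.8%, 53.6% and 64.7% in sham rats. All 8 listed let-7 members took 52.0% to 54.5% in IRI rats and 50.7% to 67.0% in sham rats, and the groups overlapped. The 16 abundant miRNAs, those with a mean scaled value of 10000 or more over the 6 libraries, held 75.8%, 78.0% and 81.7% of the reads in IRI rats and 76.8%, 80.5% and 84.8% in sham rats. IRI and sham rats overlapped on each of these sums.

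**Figure D1:**
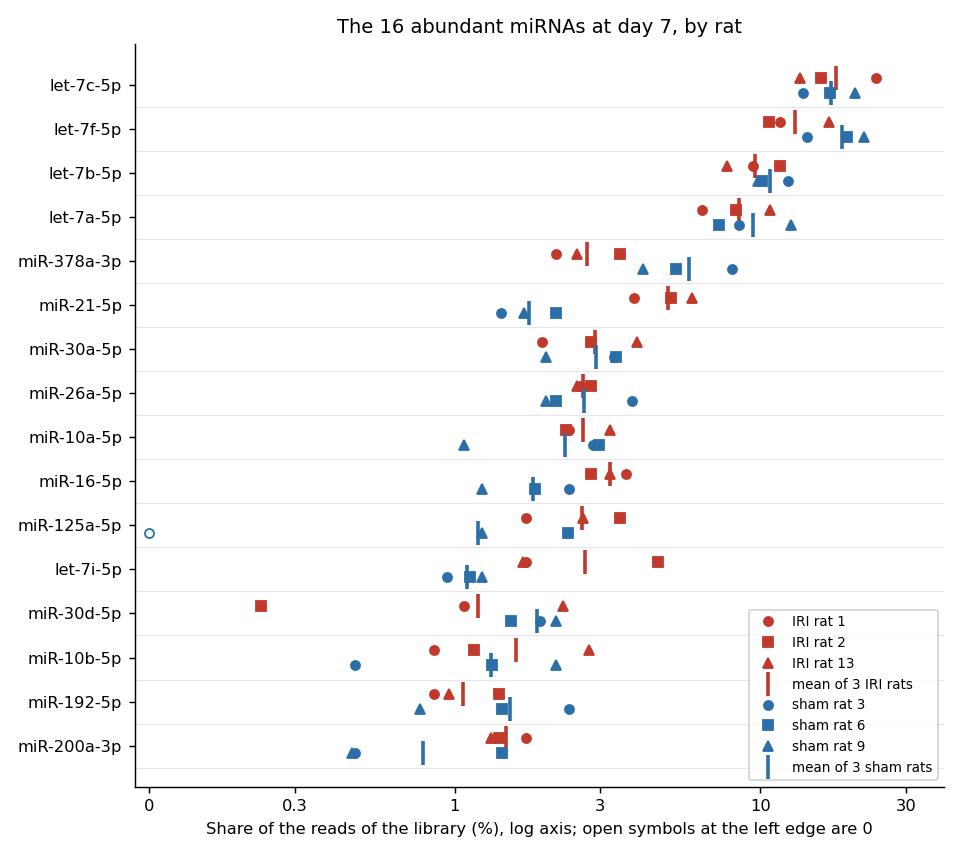
Share of the reads of each library (%, log axis, a share of 0 placed at the left edge) for the 16 abundant miRNAs at day 7, ordered by mean level. Symbols are rats, red for IRI and blue for sham, and vertical bars are means of 3 rats. The IRI and sham symbols are apart for miR-21-5p, miR-16-5p, let-7i-5p and miR-378a-3p.

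The 4 largest miRNAs did not separate the groups. let-7c-5p had 111, 68 and 113 reads in IRI rats, a scaled mean of 165313 ± 52048, and 29, 166 and 133 reads in sham rats, a scaled mean of 172598 ± 49777 (SD, n = 3 each). Its difference, IRI minus sham, was -0.06 on the log2(scaled value + 500) scale (SE 0.60, limma), a sign that turned with the scaling (0.03 with equal library totals). let-7f-5p had 54, 46 and 140 reads in IRI rats and 30, 189 and 142 in sham rats, with a difference of -0.60 (SE 0.61). Both ranged widely within a group. The variance of the scaled values of let-7c-5p was 9.15 times that of counting alone among IRI rats and 7.39 times among sham rats. Counting alone thus does not cover the spread of its scaled values between rats, which also holds that of the scaling. let-7b-5p was steadier, with 0.72 times the counting variance in IRI rats and 1.07 times in sham rats. It had 44, 50 and 65 reads in IRI rats and 26, 99 and 64 in sham rats, a difference of -0.26 (SE 0.55). let-7a-5p, with 30, 36 and 90 reads in IRI rats and 18, 72 and 82 in sham rats, differed by -0.24 (SE 0.59).

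Over all 68 miRNAs the median difference was -0.05, with 32 positive and 36 negative, and over the 16 abundant ones it was also -0.05. The median SE was 0.62 for the abundant miRNAs and 1.00 for the other 52, so a difference had to be larger among the rare ones to stand out. With limma and Benjamini-Hochberg adjustment over the 68, 1 miRNA was higher in IRI rats (1.47%) and 1 was lower (1.47%). At an unadjusted p under 0.05, 3 were higher (4.41%) and 1 was lower (1.47%). In 7 miRNAs every IRI rat lay above every sham rat (10.3%), and in 2 every IRI rat lay below (2.94%). Without a group difference, 3 against 3 rats separate fully in either direction with a probability of 0.1. These 9 of 68 are near that share, so lack of overlap is given as a description. The deposited table holds only miRNAs above 0 in at least 3 libraries, and 3 of these 9, miR-351-5p, miR-34a-5p and miR-23b-3p, were at 0 in 1 whole group, so they met that minimum only through the other group and could not have been listed with overlap. Both adjusted calls are among these 3 and are given as descriptions. Of the 65 miRNAs listed through both groups, 0 passed the adjusted test (limma), 1 had an unadjusted p under 0.05, and 5 lay higher and 1 lower without overlap, again near a share of 0.1. None of the 16 abundant miRNAs passed the adjusted test or an unadjusted p under 0.05 with limma as described, though miR-21-5p had an unadjusted p under 0.05 in 8 of 14 alternatives and miR-378a-3p in 4 of 14.

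**Figure D2:**
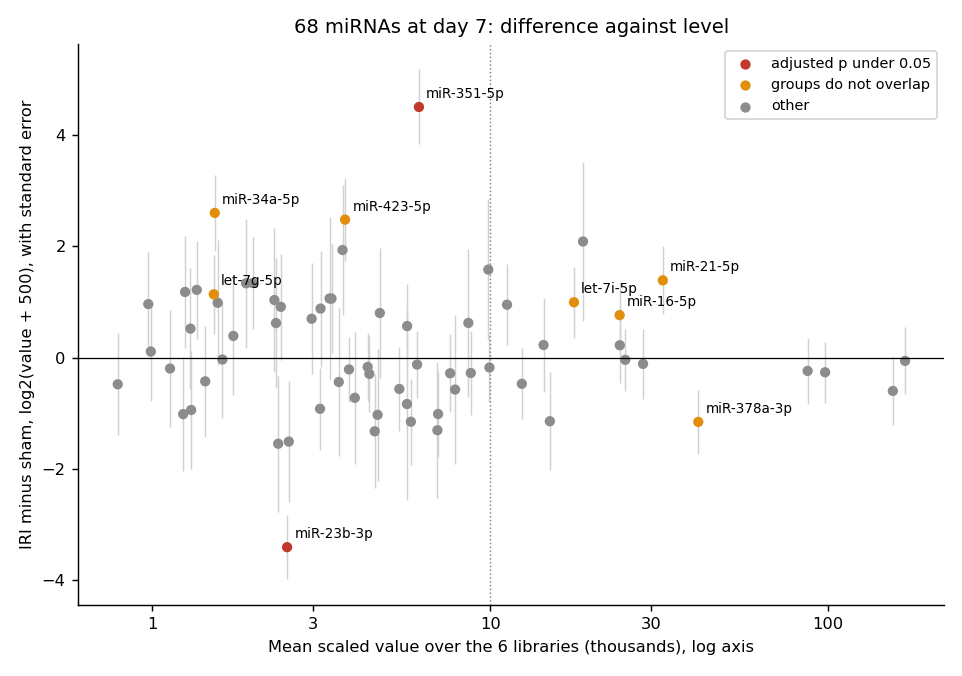
Difference between IRI and sham rats on the log2(scaled value + 500) scale, with its standard error, against the mean scaled value over the 6 libraries (log axis, in units of 1000) for the 68 miRNAs of day 7. The dotted line marks a mean of 10000. The 2 miRNAs past the adjusted threshold, miR-351-5p at 4.50 and miR-23b-3p at -3.41, lie left of it.

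Among the abundant miRNAs, miR-21-5p was the one with the largest positive difference without overlap. It had 18, 22 and 50 reads in IRI rats, a mean share of 4.98% ± 1.06 of the library, and 3, 21 and 11 reads in sham rats, a mean share of 1.75% ± 0.363 (SD, n = 3 each). The lowest IRI rat was above the highest sham rat on both scales, and the scaled means were 46731 ± 11995 in IRI rats and 18120 ± 7429 in sham rats, a ratio of 2.58. The difference was 1.39 (SE 0.61) and did not pass the adjusted test (adjusted p = 0.748, limma, with 0.0605 to 0.920 over its 14 alternatives, the lowest with voom weights on whole reads). For the shallowest library, sham rat 3, the 95% Clopper-Pearson interval of the share was 0.294% to 4.10%, which covers counting error only and reaches the share of IRI rat 1 (3.86%).

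miR-378a-3p, which is made from an intron of Ppargc1b and is known for a part in mitochondrial metabolism, lay the other way. IRI rats had 10, 15 and 21 reads, or 2.15%, 3.48% and 2.51%, and sham rats had 17, 52 and 27, or 8.06%, 5.30% and 4.15%. All 3 IRI rats were below all 3 sham rats, with scaled means of 25091 ± 4740 in IRI rats and 57490 ± 15818 in sham rats (mean ± SD of 3 rats each) and a ratio of 0.44. The difference was -1.16 (SE 0.58, adjusted p = 0.781, limma, with 0.195 to 0.920 over its alternatives). Its relative miR-378b had 0, 1 and 0 reads in IRI rats and 0, 2 and 2 in sham rats, too few to compare.

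The ratio of these miRNAs within a library does not depend on scaling. It was chosen after their values were seen and is given as a description. miR-21-5p had 1.80, 1.47 and 2.38 reads per read of miR-378a-3p in IRI rats and 0.176, 0.404 and 0.407 in sham rats. Thus miR-21-5p outnumbered miR-378a-3p in each IRI rat and was outnumbered by it in each sham rat.

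miR-16-5p, known for targeting cell cycle genes, and let-7i-5p were the other abundant miRNAs without overlap. miR-16-5p had 17, 12 and 27 reads in IRI rats and 5, 18 and 8 in sham rats, with scaled means of 30242 ± 5658 in IRI rats and 18070 ± 5724 in sham rats (mean ± SD of 3 rats each). The ratio was 1.67 and the difference 0.76 (SE 0.59, adjusted p = 0.781, limma). The lowest IRI value of miR-16-5p, 23828 in IRI rat 2, lay less than 1 read (1986) above the highest sham value, 22609 in sham rat 6. let-7i-5p had 8, 20 and 14 reads in IRI rats and 2, 11 and 8 in sham rats, a ratio of the scaled means of 2.18 and a difference of 0.99 (SE 0.64). IRI rat 2, at 4.64% of its reads, stood above the others, since IRI rats 1 and 13 were at 1.72% and 1.67% and the sham rats between 0.948% and 1.23%, and the difference was 0.58 without it. let-7g-5p also did not overlap, but rested on 1, 1 and 2 reads in IRI rats and 0, 1 and 1 in sham rats.

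**Figure D3:**
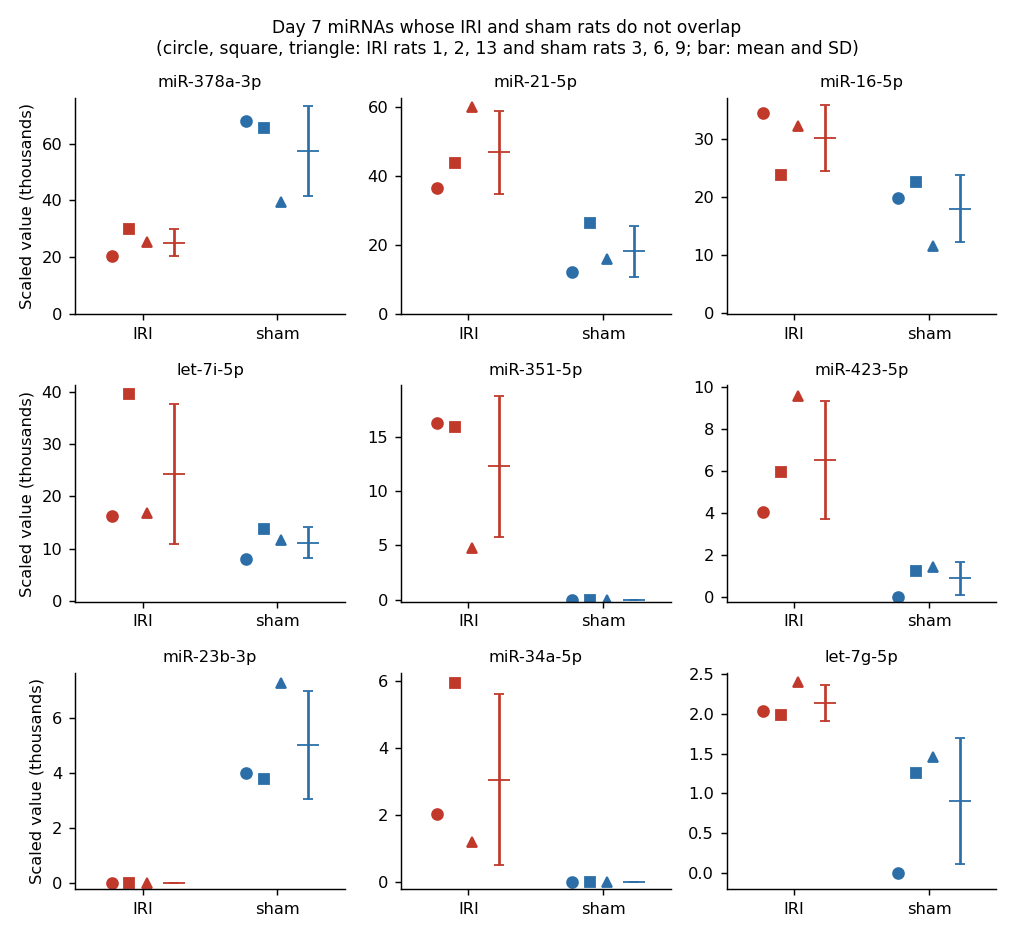
Scaled values (in units of 1000) of the 9 miRNAs whose IRI and sham rats do not overlap at day 7, one panel each with its own axis. Circles, squares and triangles are IRI rats 1, 2 and 13 and sham rats 3, 6 and 9, and the bar to their right is the mean with SD. miR-378a-3p and miR-23b-3p are lower in IRI rats and the other 7 are higher.

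The remaining abundant miRNAs overlapped between the groups. The tubule-enriched miR-30a-5p had 9, 12 and 33 reads in IRI rats and 7, 33 and 13 in sham rats, a difference of -0.11 (SE 0.63) that was 0.02 with values recentred on the median. miR-26a-5p had 12, 12 and 21 reads in IRI rats and 8, 21 and 13 in sham rats, a difference of -0.04 (SE 0.56) that was 0.10 when recentred. The share of miR-26a-5p varied little among IRI rats, from 2.51% to 2.78%. miR-10a-5p, which lies in a Hox cluster, had 11, 10 and 27 reads in IRI rats and 6, 29 and 7 in sham rats (difference 0.22, SE 0.68). miR-30d-5p had 5, 1 and 19 reads in IRI rats and 4, 15 and 14 in sham rats (difference -1.14, SE 0.88), and without IRI rat 2, which had 1 read, the difference was -0.26. miR-10b-5p, at 4, 5 and 23 reads in IRI rats and 1, 13 and 14 in sham rats, differed by 0.23 (SE 0.84). miR-192-5p, known as a tubular miRNA under p53 and TGF-β control, had 4, 6 and 8 reads in IRI rats and 5, 14 and 5 in sham rats (difference -0.47, SE 0.64). None of these passed the test with limma, and in each the groups overlapped.

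All 3 listed members of the miR-125 and miR-351 seed family had positive differences, with a median of 2.09 against -0.05 over all 68. That median is the value of miR-125a-5p, which was 0.34 without sham rat 3, the shallowest library. miR-351-5p, a rodent miRNA of the X-linked cluster with miR-322 and miR-503, had 8, 8 and 4 reads in IRI rats and 0 in all 3 sham rats. Its counts were even in every library of all 5 days. Sequenced fragments may therefore have been counted as 2 reads each, which was not tested. The difference of 4.50 (SE 0.67, adjusted p = 0.0152, limma) depends on the added constant, and the miRNA was listed only through the IRI rats, so its separation is not independent of the listing. The mean scaled value of 12309 ± 6509 in IRI rats was 1.84 times the mean sham limit of 6703, taking 3 reads in each sham library. That ratio covers counting error in sham rats only and is not a lower bound on the group difference. With fragments counted as 2 reads the sham limit would lie above the IRI mean, and the ratio would not hold. IRI rat 13, at 4796, lay under the limit. By depth, 0 reads allowed a share of up to 1.42% in sham rat 3, 0.306% in sham rat 6 and 0.461% in sham rat 9, while the shares were 1.72%, 1.86% and 0.478% in IRI rats. The 95% Clopper-Pearson intervals were 0.744% to 3.35%, 0.805% to 3.62% and 0.130% to 1.22% in IRI rats 1, 2 and 13. Those of IRI rats 1 and 2 lay above the limits of sham rats 6 and 9 and held that of sham rat 3, and that of IRI rat 13 held the limits of sham rats 6 and 9 and lay below that of sham rat 3. These limits and intervals take each read as independent. With fragments counted as 2 reads the limits would be higher and the intervals wider. The adjusted p was 0.0814 without IRI rat 1, 0.0934 without IRI rat 2, 0.0560 without sham rat 6 and 0.0537 without sham rat 9, and it ranged from 0.0019 to 0.0934 over all alternatives that gave a value.

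The other miRNAs with this seed did not pass. miR-125a-5p, which is made from a cluster with miR-99b and let-7e, had 8, 15 and 22 reads in IRI rats and 0, 23 and 8 in sham rats, a difference of 2.09 with an SE of 1.43. Its shares were 1.72%, 3.48% and 2.63% in IRI rats and 0%, 2.34% and 1.23% in sham rats. Without sham rat 3, which had no read, the difference was 0.34, and sham rat 6 was within the range of the IRI rats. miR-125b-5p had 0, 2 and 4 reads in IRI rats and 0, 4 and 0 in sham rats. All 3 members together took 3.43%, 5.80% and 3.58% of the reads in IRI rats and 0%, 2.75% and 1.23% in sham rats. This sum holds miR-351-5p, which was listed only through the IRI rats, so its separation is not independent of the listing.

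miR-23b-3p was the miRNA called lower in IRI rats. It is made from a cluster with miR-27b and miR-24 and is known for targets in TGF-β signalling. It had 0 reads in all 3 IRI rats and 1, 3 and 5 in sham rats. The difference was -3.41 (SE 0.58, adjusted p = 0.0166, limma). It was listed only through the sham rats, so with no read in IRI rats it could be listed only if every sham rat had at least 1, and the separation is set by the listing. No fold is given, since the sham mean of 5012 ± 1963 lay under the limit of 5216 that 0 reads allowed in IRI rats. The limits were 0.644%, 0.696% and 0.358% of the reads in IRI rats, and the sham shares were 0.474%, 0.306% and 0.768%. Hence the depth of a single IRI library could not tell it from sham rat 6, and the call rests on 9 reads in all. The adjusted p stayed under 0.05 only without sham rat 3 (0.0399) and lay between 0.0537 and 0.0934 without each of the other 5 rats, with 0.0019 to 0.176 over all alternatives that gave a value.

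The cluster partners of miR-23b-3p were not called. Of 6 members of the miR-23/27/24 clusters 5 were listed, with a median difference of 0.62, 3 positive and 2 negative. miR-27b-3p, from the same cluster, had 2, 6 and 4 reads in IRI rats and 2, 10 and 3 in sham rats (difference -0.28). miR-24-3p had 2, 0 and 4 reads in IRI rats and 0, 2 and 0 in sham rats (1.33). miR-23a-3p, a single base from miR-23b-3p, had 2, 1 and 0 reads in IRI rats and 0, 0 and 1 in sham rats (1.18). miR-23a-3p and miR-23b-3p summed gave 0 to 2 reads in each IRI rat and 1 to 6 in each sham rat, so with near copies joined the groups overlapped.

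A pair of further miRNAs passed only the unadjusted threshold. miR-423-5p had 2, 3 and 8 reads in IRI rats and 0, 1 and 1 in sham rats, a difference of 2.48 (SE 0.75, adjusted p = 0.209, limma), and its IRI and sham rats did not overlap. miR-34a-5p, a direct target of p53, had 1, 3 and 1 reads in IRI rats and 0 in all sham rats, a difference of 2.60 (SE 0.68, adjusted p = 0.138, limma). It too was listed only through the IRI rats, which fixes its lack of overlap. Its mean of 3062 in IRI rats was under the limit of 6703 that 0 reads allowed in sham rats, so a fold is not given. It passed with a constant of 50 (adjusted p = 0.00994, limma) and with no other alternative, over which its adjusted p reached 0.614.

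The miR-200 family, which represses ZEB transcription factors in epithelium, showed no common direction. All 5 members were listed, none passed the test, and 2 differences were positive and 3 negative around a median of -0.72. miR-200a-3p, the only abundant one, had 8, 6 and 11 reads in IRI rats and 1, 14 and 3 in sham rats (difference 0.95, SE 0.73). miR-141-3p had 2, 3 and 2 reads in IRI rats and 0, 4 and 2 in sham rats (1.06), and the difference was 0.02 without sham rat 3. miR-200c-3p had 6, 0 and 1 reads in IRI rats and 1, 4 and 1 in sham rats, where the scaled mean was higher in IRI rats (4461 against 3490) and the log2 difference negative (-0.72), and without IRI rat 2, which had no read, it was 0.35. miR-429 had 0, 0 and 5 reads in IRI rats and 1, 3 and 1 in sham rats (-1.51, with -2.74 to -0.89 when each rat was left out), and miR-200b-3p had 3, 0 and 8 reads in IRI rats and 3, 9 and 2 in sham rats (-1.31). The summed family took 4.08%, 2.09% and 3.23% of the reads in IRI rats and 2.84%, 3.47% and 1.38% in sham rats.

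Of the other families, the 4 listed miR-30 members had a median difference of 0.34 (2 positive, 2 negative), the 3 listed miR-10 members 0.22, the 2 miR-196 members 0.30, the 2 miR-26 members 0.29 and the 2 miR-181 members 0.57. The 2 listed miR-29 members, known for repressing collagen genes, had a median of -0.43, with 9 of their reads from miR-29b-3p in IRI rat 1 and no such read in the other IRI rats. The miR-183 cluster had a median of -0.66 over 2 listed members, and the miR-17/92 group 0.78 over 2 of 9. miR-148a-3p had 1 read in each IRI rat and 2, 1 and 3 in sham rats (difference -0.92, SE 0.74). No member of these families passed the test. Of 10 miRNAs that the study names in its text 9 were listed (all but miR-9a-5p), with 1 past the test (miR-351-5p). That list was chosen on these samples and gives no independent evidence of a direction.

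Day 7 was then compared with its neighbours in time, whose tables were scaled separately and sample the same 6 rats. Reads were therefore scaled together over the miRNAs listed on both days, and the IRI minus sham difference of the other day was subtracted from that of day 7. This fit takes both libraries of a rat as independent. Against day 14, 0 of 63 shared miRNAs passed the adjusted test (limma) and 2 had an unadjusted p under 0.05 (3.17%): miR-423-5p, 2.86 larger at day 7 (SE 1.01, adjusted p = 0.801), and miR-28-3p, 2.66 larger. With the rat as a block, which pairs the days, miR-423-5p had an SE of 0.60 and an adjusted p of 0.166 (limma). Against day 3, the last day with raised creatinine, 0 of 57 passed and 4 had an unadjusted p under 0.05 (7.02%). These were miR-351-5p (4.97, SE 1.38, adjusted p = 0.242), miR-23b-3p (-3.57, SE 1.18, adjusted p = 0.325), miR-30c-5p (3.53) and let-7i-5p (1.68). For the first pair the listing at day 7 bears on these values as above. Libraries of day 3 had 691 to 12739 reads in IRI rats and 289 to 909 in sham rats, and those of day 14 had 651 to 1157 in IRI rats and 666 to 1796 in sham rats. Without sham rat 3, 1 of the 57 passed, miR-351-5p (adjusted p = 0.0227, limma). A difference between days was therefore not shown for any miRNA with all 6 rats.

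miR-378a-3p, miR-16-5p and miR-21-5p had the same sign on all 5 days, and let-7i-5p, miR-351-5p and miR-23b-3p did not. How many of all listed miRNAs kept their sign was not counted, so this is a description. In the separate table of each day, miR-21-5p differed by 1.19, 1.08, 2.03, 1.39 and 1.27 at days 1, 2, 3, 7 and 14, and miR-378a-3p by -1.32, -2.55, -2.31, -1.16 and -0.47. miR-16-5p differed by 2.03, 0.51, 0.93, 0.76 and 0.50, and let-7i-5p by 0.34, 0.27, -0.26, 0.99 and 0.45. miR-351-5p was at 0.42, 0.23, -0.20, 4.50 and 3.57, and at day 14 it again had 0 reads in all sham rats, with 2, 8 and 8 reads in IRI rats 1, 2 and 13. miR-23b-3p was at -1.36, 0.63, 0.20, -3.41 and -2.92, and at day 14 too it had no read in any IRI rat, with 5, 2 and 3 reads in sham rats 3, 6 and 9. At day 14, as at day 7, miR-351-5p and miR-23b-3p were each listed only through a single group, so their separation there is set by the listing. miR-423-5p was at -0.22, -0.84, 0.67, 2.48 and -0.20, and its difference between days 7 and 14 did not pass the adjusted test. The same rats stand behind all 5 values of a miRNA, so these are not independent repeats.

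**Figure D4:**
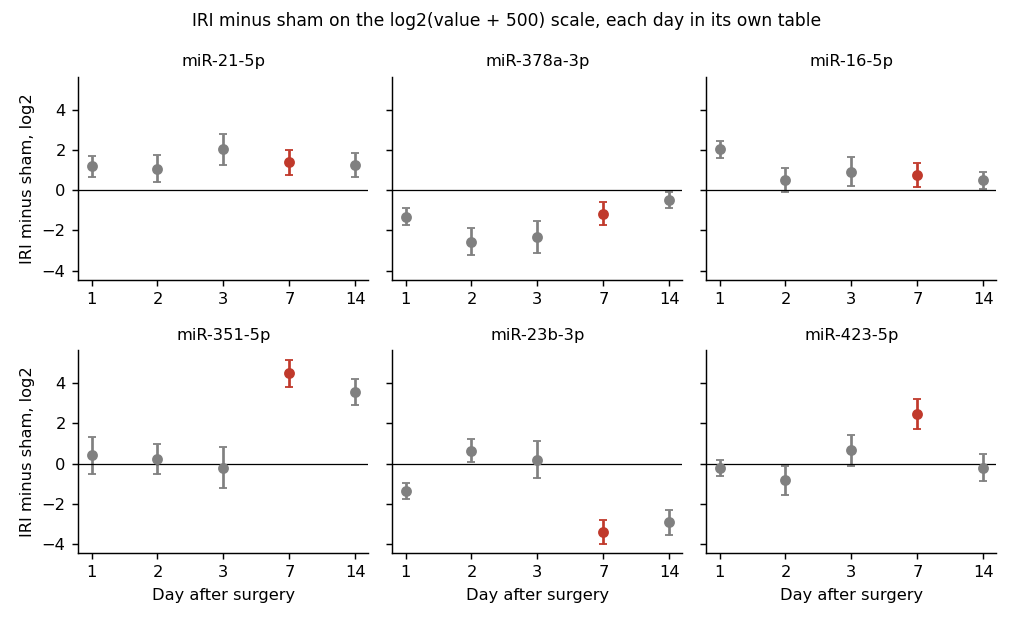
IRI minus sham difference on the log2(scaled value + 500) scale, with standard error, at days 1, 2, 3, 7 (red) and 14 after the surgery (days equally spaced), each from the table of its day, 3 rats per group. miR-21-5p stays above 0 and miR-378a-3p below 0 on every day, while miR-351-5p is at 4.50 at day 7 and 3.57 at day 14 and between -0.20 and 0.42 before. At days 7 and 14 miR-351-5p was listed only through the IRI rats.

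Of the 68 miRNAs, 56 were listed on all 5 days, and miR-190a-5p was listed at day 7 only, with 4, 2 and 0 reads in IRI rats and 2, 0 and 0 in sham rats. Listing took 3 or more libraries above 0 out of the 6 of a day, so at these depths a listing can turn on single reads. The letters GGAG, searched in the mature strand, were in 5 of the 58 matched miRNAs (8.62%) and in 56 of all 693 mature rat miRNAs of the same table (8.08%). The 5 were let-7e-5p, miR-378a-3p, miR-3473, miR-351-5p and miR-205. The wider motif GGRS that the study reports was not searched.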

How the data were processed

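Urinary exosome small RNA was sequenced (QIASeq miRNA library kit) from 3 IRI and 3 sham rats at day 7, with groups, rats, days and lanes taken from the labels. The authors trimmed adaptors with Cutadapt, aligned reads to the rat genome (version 5) with Bowtie and the miRDeep2 mapper in CAP-miRseq, counted them with HTSeq, and deposited signal values, that is counts scaled to about the CPM range and rounded. The scaling method and tool versions are not given in the sources used here. The deposited tables also hold log2 fold changes, mean levels, test scores, p-values and FDR from the authors' own edgeR comparison, and none of these was used.

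The worth of 1 read in a library was taken as the common step of its values of at most 20 reads, and reads are the values divided by it. Totals of the scaled values ran from 842376 to 1232199. Shares have 95% Clopper-Pearson intervals, and the limit for 0 reads is 3 reads. Both cover counting error only and take each read as independent. Counts of miR-351-5p and miR-24-3p were even in every library of all 5 days. At day 7 so were those of others, among them miR-181a-5p, miR-103-3p, miR-196b-5p, miR-30c-5p and miR-125b-5p. Whether fragments were counted as 2 reads there was not tested. Values were compared as log2(scaled value + 500) with limma 3.58.1 (lmFit and eBayes, two-sided) in R 4.3.3 and Benjamini-Hochberg adjustment over the 68 miRNAs at a threshold of 0.05. The constant lies below the worth of 1 read in every library, so a library at 0 weighs heavily in the difference of a rare miRNA. Differences between days used reads scaled to CPM over shared miRNAs. Library values had exact permutation tests (SciPy 1.17.1). Fits were tested on simulated data.

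Text names every miRNA past an adjusted or unadjusted p of 0.05, without overlap, with a mean of 10000 or more, or named by the study, and up to 4 members of each of 24 lists. miR-28-3p and miR-30c-5p were named for the difference between days, and miR-190a-5p for its listing, after their values were seen. The members and lists were chosen with earlier results of these data known. By the labels each rat was sampled on all 5 days, so rats pair the days and not the groups. The alternatives tried were other constants (50, 2000 or 0.5 read), only miRNAs above 0 in all 6 libraries, equal totals, recentring, an intensity trend, a threshold of 0.01, leaving out each rat and the replicate block. voom weights on whole reads were added after the data were seen. Planned count models were not run. Other days were used only for the differences named.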

Additional observations from a re-analysis of the deposited data

How the results depend on the processing

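The number of miRNAs called at day 7, 2 as reported, was 2 with equal library totals and 2 recentred on the median, 1 with a constant of 2000, 0 with 0.5 read as the constant, 0 of 27 among miRNAs above 0 in all 6 libraries (2 at an unadjusted p under 0.05 with limma, miR-21-5p and miR-378a-3p), where miR-351-5p and miR-23b-3p were not tested, 0 with an intensity trend (6 unadjusted), 1 with voom weights on whole reads (7 unadjusted), 0 at a threshold of 0.01, and 0 to 2 when each rat was left out. It was 3 with a constant of 50, miR-34a-5p being the added one. miR-351-5p and miR-23b-3p kept their sign in all 13 alternatives that gave a value. Recentring moved the median difference of all miRNAs to 0.09, against -0.05. Of the 26 miRNAs named by the rule, 6 turned sign, and none of the 6 passed the test. let-7c-5p was 0.032 with equal totals, 0.029 with 0.5 read and 0.078 recentred, and -0.32 to 0.10 with each rat left out. miR-30a-5p was 0.024 recentred, 0.073 with voom weights and -0.42 to 0.17 with each rat left out. miR-26a-5p was 0.048 with equal totals, 0.043 with 0.5 read, 0.097 recentred, 0.21 with voom weights and -0.24 to 0.13 with each rat left out. With each rat left out, miR-10a-5p was -0.28 to 0.62, miR-10b-5p -0.46 to 0.65 and miR-200c-3p -1.98 to 0.35. The difference in reads per library was -238 to 147, and that in miRNAs above 0 was -1.67 to 8.33. The cause was not tested. With the rat as a replicate block, 0 miRNAs passed in the difference of day 7 from day 14 (2 unadjusted, limma) and 0 in that from day 3 (4 unadjusted, with miR-429 in place of let-7i-5p). With each rat left out these counts were 0 to 0 and 0 to 1, the 1 being miR-351-5p without sham rat 3. Within day 7 no paired analysis was possible because the rat numbers differ between the groups. Count models on recovered reads (edgeR) were not run. Depth limits every rare miRNA: 34 of 68 had at most 5 reads in any library.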

Other observations

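Several pairs of listed miRNAs lie within 10 kb of each other in the RefSeq annotation (GRCr8) and can be made from one transcript. miR-141-3p had 2, 3 and 2 reads in IRI rats and 0, 4 and 2 in sham rats (difference 1.06, and 0.02 without sham rat 3), while miR-200c-3p, its neighbour, was at -0.72. miR-99b-5p, next to let-7e and miR-125a, had 1, 2 and 5 reads in IRI rats and 3, 2 and 4 in sham rats (-0.56), let-7e-5p had 4, 4 and 9 reads in IRI rats and 2, 14 and 5 in sham rats (-0.18), and miR-125a-5p was at 2.09. miR-182 and miR-183-5p, from a cluster known from sensory and epithelial cells, were both negative, at -1.15 and -0.17. None of these passed the test with limma, and differences between members of a cluster were not tested.

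Among the 34 miRNAs with at most 5 reads in every library the median difference was 0.25, with 18 positive and 16 negative. Among the 27 that were above 0 in all 6 libraries it was -0.21, with 7 positive and 20 negative. To be among these 27 a miRNA needed a read in sham rat 3, the shallowest library. A read was worth 3992 on the scaled axis there and 1199 to 2031 in IRI rats. The filter thus favours high values in sham rat 3, and its part in the negative differences was not tested.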
